A study of Mus musculus with 29 samples.

Results

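H2Aub type 3 segments that lie directly beside type 2, with no type 4 or 5 neighbour, are described here from a segmentation of the mouse genome into 5 types of H2Aub. Their members were taken from the sorted table as every type 3 segment with at least 1 direct neighbour of type 2 and none of type 4 or 5. This gave 2014 of the 9092 type 3 segments, or 22.2% of their number and 25.2% of their length, among 31563 segments of all types. Together they covered 118.23 Mb, or 4.80% of the segmented length of chromosomes 1 to 19. The working name of the set, type 3 beside type 2 only, holds for 1029 of them, which had type 2 on both sides (double-flanked below, 47.24 Mb). The other 985 had type 2 on one side and type 1 on the other (single-flanked below, 70.99 Mb). The members were thus chosen by the type labels of a segment and of its direct neighbours, which are therefore no findings.

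H2Aub is histone H2A that carries a single ubiquitin on a lysine of its tail, placed by Polycomb repressive complex 1 and removed by the deubiquitinase PR-DUB. The complex is known to gather at promoters rich in CpG dinucleotides, many of which belong to developmental regulator genes that are kept silent. Polycomb repressive complex 2, which needs its subunit Eed, places H3K27me3, and each complex can be recruited through the mark of the other. In oocytes and early embryos both marks are also spread in broad domains. CUT&RUN releases the DNA around an antibody-bound mark with a tethered nuclease, and ChromHMM is a hidden Markov model that cuts a genome into states from such signal.

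CUT&RUN was made on 29 libraries in 16 groups, 24 of H2Aub and 5 of H3K27me3. Maternal Eed knockouts, labelled Gdf9-Eed (fl/fl) after the oocyte gene Gdf9, gave 2 H2Aub libraries each from germinal vesicle (GV) oocytes, 4-cell embryos and morulae. The PR-DUB embryos at the 4-cell stage, from WT x WT matings, gave 1 H2Aub and 2 H3K27me3 libraries with overexpression (OE) and as many of the control (CTR). The groups labelled WT held 16 H2Aub libraries: GV oocyte (2), MII oocyte (2), zygote (2), 2-cell (3), 4-cell (2), morula (2), inner cell mass (1) and E6.5 epiblast (2), with 1 H3K27me3 library of GV oocytes. Some libraries under that title, such as those of GV oocytes for H2Aub, carried Eed (fl/fl) alleles without the Gdf9 driver. Oocytes came from mice of B6/129 mixed or B6/DBA background, and embryos from crosses of these with PWK. Where a number is given, a library held 1 to 300 oocytes or embryos, pooled except for the epiblasts.

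The table analysed here is 1 segmentation for the whole series, in which each segment has a type label and no library has a value. Neither the level or stage of H2Aub that a type stands for nor the libraries behind the model could be read from the labels or the table. No condition or replicate can therefore be compared, the depth behind a label is unknown, and no difference below was tested. Intervals on shares are exact 95% Clopper-Pearson intervals that cover counting error only, and the spread over chromosomes is given as the second measure of error.

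The sequences shown first are those the results return to: promoters at both ends of the CpG scale among genes that start in the longest or most gene-rich segments. Each is the 300-base stretch around a gene start from RefSeq (GRCm38.p6, the same build as mm10), 5′ to 3′ on the gene's strand, with each CG dinucleotide in capitals. Hnrnpa0, which encodes an RNA-binding protein, starts in the longest segment (promoter chr13:58128507-58128806, minus strand) with 52 CpG. Chn2, which encodes the Rac GTPase-activating protein beta-chimaerin, starts in a 370 kb double-flanked segment (chr6:54039682-54039981, plus strand) with 39 CpG. Mslnl, a mesothelin-like gene (chr17:25735790-25736089, plus strand), and Jhy, a gene of motile cilia (chr9:40964504-40964803, minus strand), each have 2 CpG.
Hnrnpa0: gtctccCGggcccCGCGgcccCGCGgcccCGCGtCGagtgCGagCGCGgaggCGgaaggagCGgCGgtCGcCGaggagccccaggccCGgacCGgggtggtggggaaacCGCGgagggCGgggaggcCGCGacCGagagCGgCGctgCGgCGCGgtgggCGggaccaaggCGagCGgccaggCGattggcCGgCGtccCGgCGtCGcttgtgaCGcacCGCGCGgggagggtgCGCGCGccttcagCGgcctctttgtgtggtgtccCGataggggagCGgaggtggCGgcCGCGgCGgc
Chn2: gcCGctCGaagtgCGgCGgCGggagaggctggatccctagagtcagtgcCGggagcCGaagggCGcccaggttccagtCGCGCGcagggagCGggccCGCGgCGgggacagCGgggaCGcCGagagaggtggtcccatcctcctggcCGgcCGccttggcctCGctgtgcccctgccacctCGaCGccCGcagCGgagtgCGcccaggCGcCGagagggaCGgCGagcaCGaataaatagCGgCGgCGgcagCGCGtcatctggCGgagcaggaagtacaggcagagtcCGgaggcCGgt
Mslnl: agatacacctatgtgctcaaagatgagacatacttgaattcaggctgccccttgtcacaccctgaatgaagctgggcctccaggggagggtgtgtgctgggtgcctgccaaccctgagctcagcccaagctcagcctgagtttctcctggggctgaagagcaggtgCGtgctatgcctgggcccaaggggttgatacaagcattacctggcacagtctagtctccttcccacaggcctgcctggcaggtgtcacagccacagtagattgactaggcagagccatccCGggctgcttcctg
Jhy: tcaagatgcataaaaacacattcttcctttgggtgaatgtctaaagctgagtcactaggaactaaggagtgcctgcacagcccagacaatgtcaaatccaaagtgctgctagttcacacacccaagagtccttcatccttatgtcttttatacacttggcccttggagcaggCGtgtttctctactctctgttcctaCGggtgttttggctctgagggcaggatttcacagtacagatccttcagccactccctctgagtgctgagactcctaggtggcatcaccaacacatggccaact
The ratio of observed to expected CpG was 1.14 for Hnrnpa0, 0.983 for Chn2, 0.0802 for Mslnl and 0.118 for Jhy. The 4 were picked as the highest and lowest ratios among the named genes and lie in 4 different segments, so they show the range and not its frequency.

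The segments were short but long-tailed. Their length had a median of 35 kb and quartiles of 20 and 75 kb, with a mean of 58.7 kb and a range of 5 to 635 kb. Double-flanked segments had a median of 30 kb and a mean of 45.9 kb, against 45 and 72.1 kb in single-flanked ones. The double-flanked median was the lower one on 17 of 19 chromosomes and the higher one on 1. Segments of at least 100 kb made up 10.7% of the double-flanked set (110), against 23.9% of the single-flanked set (235).

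The other classes of type 3 lay to either side. The median was 35 kb in the flanked segments, against 30 kb both in type 3 islands inside type 1 (2712) and in type 3 shoulders of type 4 domains (3180), 40 kb in islands inside type 4 (709) and 20 kb in the remaining type 3 (477). The shortest segment was 20 kb in islands inside type 4 and 10 kb in islands inside type 1 and double-flanked segments. It was 5 kb in single-flanked segments, shoulders and the remaining type 3. The medians are thus of sets with different minimum lengths. By chromosome the flanked median was above that of the islands inside type 1 on 16 of 19 and below it on 1, and above that of the shoulders on 14 and below it on 1. A single 5 kb bin made up 68 of the flanked segments (3.38%), all of them single-flanked, against 390 of the shoulders (12.3%) and none of the islands inside type 1. The plot of segment lengths shows these distributions.

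**Figure D1:**
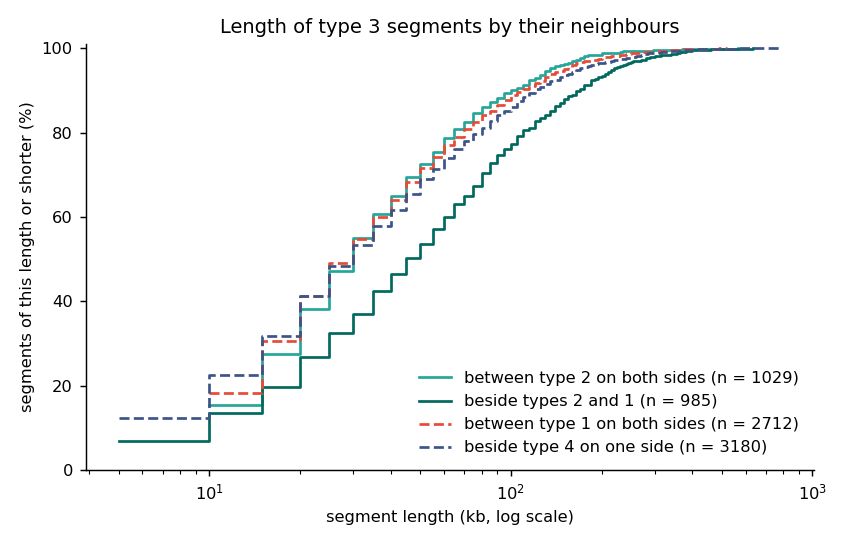
Share of segments (%) of a given length or shorter against segment length (kb, log axis), with 1 line for each class of type 3 segments and the flanked ones divided by their neighbours. Double-flanked segments have a median of 30 kb and single-flanked ones 45 kb, against 30 kb in islands inside type 1 and in shoulders of type 4.

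On the type 2 side the neighbours were short as well. The 3043 contacts with type 2 had a median neighbour of 30 kb (quartiles 15 and 60 kb, maximum 1025 kb). They came from 2375 different type 2 segments, which is 39.6% of the 6000 of that type, and 668 of these (28.1%) lay between a pair of flanked segments. The type 2 segments that touched one had a median of 25 kb, against 20 kb in the other 3625. The 985 type 1 neighbours had a median of 40 kb (quartiles 20 and 85 kb). Behind the type 2 neighbour came type 3 again in 61.2% of contacts (59.4 to 62.9%) and type 1 in 28.8% (27.2 to 30.5%). Type 4 came in 7.49% (6.58 to 8.49%) and type 5 in 2.40% (1.89 to 3.01%). These are shares of contacts, not of type 2 segments. Each of the 668 was counted from each side, with the flanked segment across it as the type 3 behind, which raises the type 3 share. The intervals treat such contacts as independent and are too narrow. No share was computed per type 2 segment or for the other 3625.

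The nearest type 4 segment was a median of 160 kb away (quartiles 65 and 383.75 kb), against 240 kb (120 and 505 kb) for type 3 islands inside type 1. For type 5 the median distance was 610 kb (241.25 and 1460 kb), against 720 kb (260 and 1835 kb) for those islands. Absence of type 4 and 5 next door is fixed by the rule, so a distance above 0 is not a result, and the ranges of both classes overlap widely.

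By the rule every flanked segment lies in a run of types 2 and 3, so only the number in each run is described. There were 1345 such runs with a flanked segment, 930 of them with only 1 (46.2% of the flanked segments), and 62 with at least 4, which together held 292. The run with most flanked segments, chr8:117460001-118985000 (mm10), alternated through 25 segments over 1525 kb and held 11 of them. It begins at Cmip and ends in Cdh13, the gene of the cell adhesion protein T-cadherin, and also touches Plcg2, a phospholipase C of immune cell signalling. The next, chr12:116710001-117930000, held 10 in 19 segments over 1220 kb, with Ptprn2, a protein of secretory vesicles, and Dnah11, a dynein of cilia. A run at chr14:57960001-58665000 held 8 in 705 kb. Its only protein-coding genes were Micu2, a regulator of mitochondrial calcium uptake, and Fgf9, a secreted growth factor. The run at chr9:40830001-42310000 held 8 in 1480 kb, from Bsx, a brain homeobox gene, to Sorl1 and Sc5d, a sterol desaturase. These genes were named after the runs were ranked.

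The 10 longest segments held 1 to 10 whole protein-coding genes each. The longest, chr13:57505001-58140000 (635 kb), had a 55 kb type 2 segment on the left and a 15 kb type 1 segment on the right. Its longest occupant was Spock1, which encodes a proteoglycan of the extracellular matrix and filled 403.3 kb of it. Wholly inside were Klhl3, an adaptor of a cullin ubiquitin ligase, and Hnrnpa0. The longest double-flanked one, chr13:45130001-45695000 (565 kb), lay between type 2 segments of 10 and 50 kb. It held Mylip, a ubiquitin ligase for the LDL receptor, Gmpr, a GMP reductase, and 145 kb of Atxn1, the ataxin 1 gene. The plot of both loci shows them with their neighbours.

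**Figure D2:**
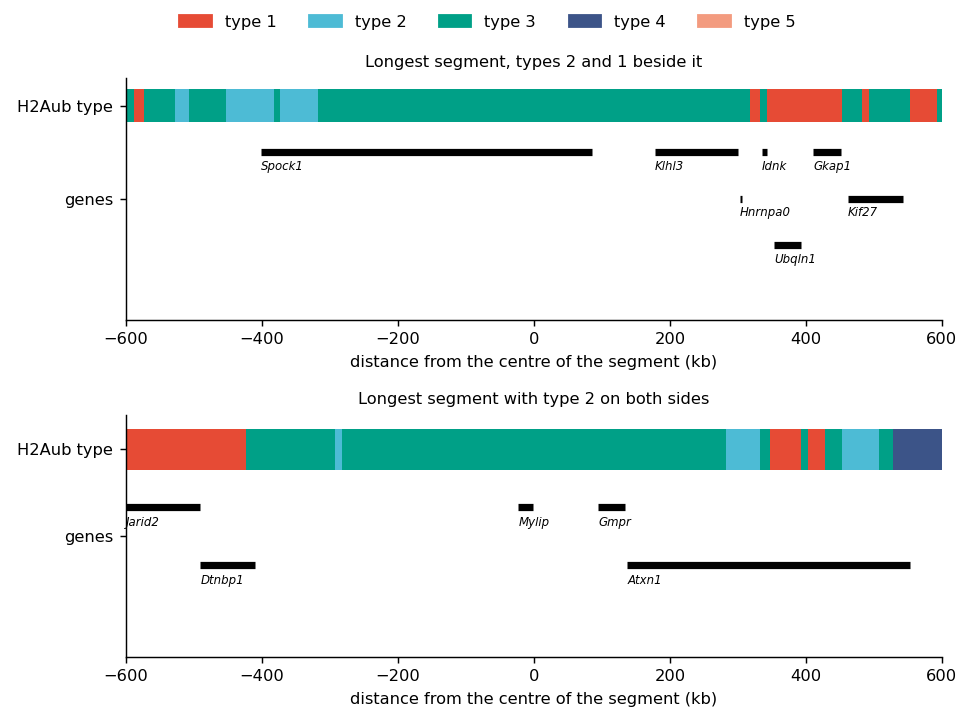
Segments by type (coloured blocks) and protein-coding genes (lines below) around the longest segment and the longest double-flanked segment, against distance from the segment's centre in kb; genes at the far right edge of the window are not drawn. The first extends 317.5 kb and the second 282.5 kb to each side of 0, with short type 2 or type 1 segments at their ends.

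The others among the 10 longest varied in gene content. At chr12:3710001-4205000 (495 kb, type 1 of 130 kb on the left and type 2 of 10 kb on the right) lay Dnmt3a, a de novo DNA methyltransferase that is essential in the oocyte, with Pomc, the precursor gene of melanocortins, Efr3b and Dnajc27. At chr5:113925001-114405000 (480 kb, type 2 of 60 and 25 kb) lay 10 genes, among them Ssh1, a cofilin phosphatase, Dao, D-amino-acid oxidase, Svop, a synaptic vesicle protein, and Usp30, a mitochondrial deubiquitinase. The largest of them was Acacb, an acetyl-CoA carboxylase, at 104.4 kb. At chr5:117770001-118250000 (480 kb, type 2 of 20 and 10 kb) lay 6, among them Nos1, the neuronal nitric oxide synthase, the F-box genes Fbxo21 and Fbxw8, and Tesc. At chr9:40830001-41290000 (460 kb) lay Bsx, Jhy, Crtam and Ubash3b, the last of which filled 150.9 kb.

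Disc1, a scaffold protein of neurons, filled 216.4 kb of chr8:125025001-125440000 (415 kb). Gsto1 and Gsto2, glutathione transferases, lay with Itprip and Cfap58, a gene of the sperm flagellum, in chr19:47750001-48150000 (400 kb). Cachd1, a calcium channel subunit gene, filled 227.1 kb of chr4:100740001-101125000 (385 kb). The member at chr18:38470001-38975000 (505 kb) held Spry4, a feedback inhibitor of receptor tyrosine kinase signalling, and Fgf1, a fibroblast growth factor, and 373.4 kb of Arhgap26. The 5 longest double-flanked segments also include chr6:53795001-54165000 (370 kb), with Tril and Cpvl inside and 125.1 kb of Chn2, and chr17:8340001-8665000 (325 kb), with 139.8 kb of Pde10a, a phosphodiesterase.

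The flanked segments and the type 2 beside them differed more in gene starts than in length inside genes. A protein-coding gene overlapped 70.7% of the flanked segments (68.7 to 72.7%, 1424), against 49.4% of all type 2 segments, touching or not. That share was not computed for the touching ones alone. The length inside such genes was 50.3% in the flanked segments, against 53.7% in the type 2 segments that touch them. Starts were used for 16457 of 20558 protein-coding genes, and none on chromosome 18. The share used was 54.5% on chromosome 15 and 69.5% on chromosome 8, against 79.3 to 87.5% on the others, so the densities of those chromosomes are undercounts for every class. Per Mb there were 10.5 starts in the flanked segments (1188), against 1.98 in their type 2 neighbours (222). The flanked value was higher on 18 of 18 chromosomes, with a range of 5.84 (chromosome 8) to 18.1 and a median of 10.5, and a lowest value of 6.97 apart from chromosome 8, against 0.764 to 4.56 and a median of 1.92 in the type 2 neighbours.

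**Figure D3:**
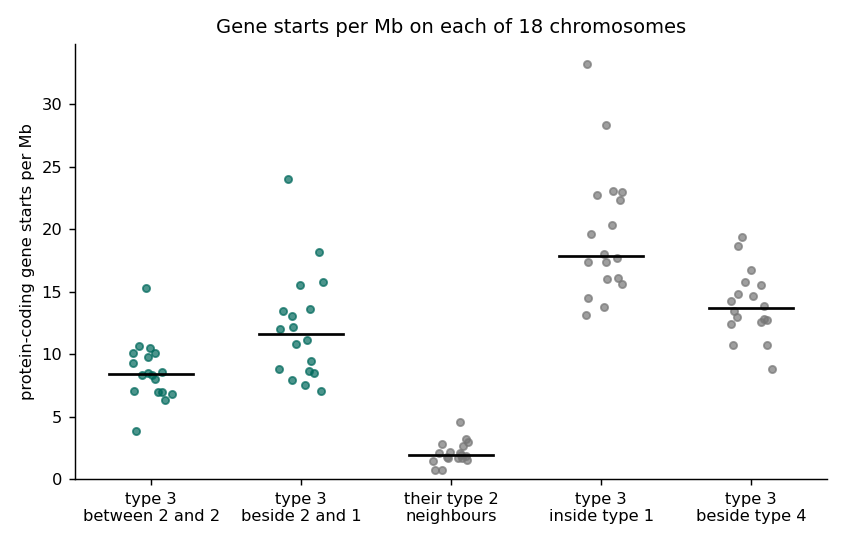
Protein-coding gene starts per Mb by class of segment, with 1 point for each of 18 chromosomes (chromosomes 8 and 15 undercounted) and a line at the median. Double-flanked segments lie between 3.89 and 15.3 and single-flanked ones between 7.06 and 24.1, against 0.764 to 4.56 in their type 2 neighbours and 13.2 to 33.2 in type 3 islands inside type 1.

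Within type 3 the flanked segments had the fewest starts of the 3 large classes. Their 10.5 starts per Mb compare with 19.8 in type 3 islands inside type 1 (range over chromosomes 13.2 to 33.2) and with 14.1 in shoulders of type 4 (8.81 to 19.4). They were below the islands on 18 of 18 chromosomes and below the shoulders on 16 of 18. Among them, double-flanked segments had 8.39 starts per Mb, against 11.8 in single-flanked ones, and were lower on 16 of 18. At least 1 start lay in 37.2% of flanked segments (35.1 to 39.4%, 720 of 1933), against 49.0% of the islands, 38.9% of the shoulders and 8.39% of type 2.

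Segments in the same length bin differed from the islands too. In the 5 to 15 kb bin only single-flanked segments and shoulders included 5 kb segments, so lengths within it were not alike. The effect of this on the shares in that bin was not tested. Of segments of 5 to 15 kb, 18.7% of flanked ones held a start (15.3 to 22.6%), against 27.0% of islands (23.9 to 30.2%). The shares were 27.9% against 45% at 20 to 45 kb, 50.1% against 69% at 50 to 95 kb and 65.5% (60.1 to 70.6%) against 84.5% (80.1 to 88.2%) from 100 kb. The shoulders of type 4 came close to the flanked segments in the shortest bin, at 18.7% in flanked segments against 18.1% in shoulders, and were higher at 20 to 45 kb, with 27.9% against 34.5%. Double-flanked segments had the higher share only at 5 to 15 kb, 20.6% against 16% in single-flanked ones with overlapping intervals, and the lower share in the longer bins, for example 36.9% (30.1 to 44.0%) against 60.7% (54.3 to 66.9%) at 50 to 95 kb.

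The rise in starts came at the border itself. In the first 5 kb inside a flanked segment from a type 2 border there were 12.6 starts per Mb (184 starts in 2926 windows), against 3.35 (49) in the last 5 kb of the type 2 segment. The next 5 kb inside held 13.8 per Mb, and from 10 to 60 kb inside the value lay between 6.45 and 10.5. From 5 to 60 kb into type 2 it lay between 1.22 and 3.00. At the borders with type 1 the first 5 kb inside held 18.5 starts per Mb (87 in 940 windows), against 11.9 (56) in the last 5 kb of type 1. Further into type 1 the value lay between 7.99 and 15.1, so that border had a step of a smaller ratio.

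**Figure D4:**
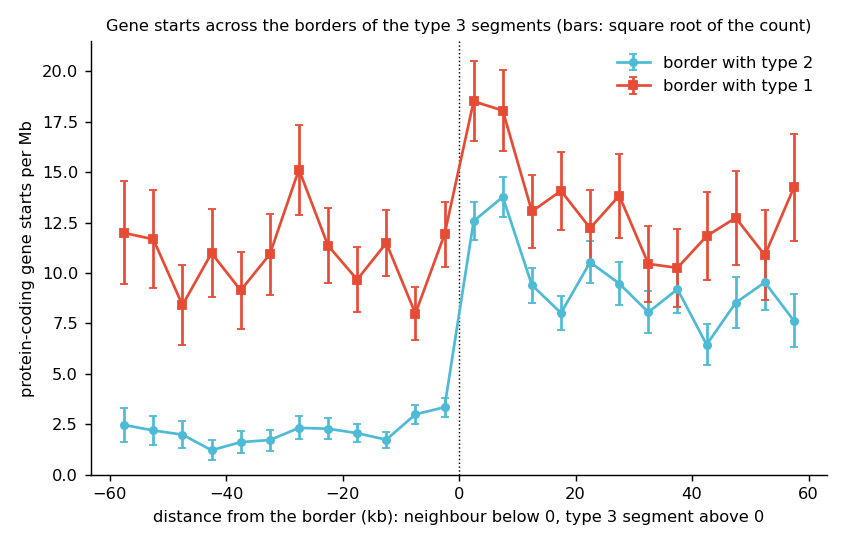
Gene starts per Mb in 5 kb windows across the borders of the flanked segments, against distance from the border in kb (negative outside the segment, positive inside), for borders with type 2 and with type 1; bars are the square root of the number of starts, per Mb. Starts reach 12.6 per Mb in the first window inside from type 2, against 3.35 in the last window of type 2.

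Genes with 1 end in a flanked segment and the other in type 2 mostly began in the flanked segment. Of the 1188 genes that started in a flanked segment, 696 (58.6%, median gene length 12.4 kb) also ended in it and 492 (41.4%, median 64.2 kb) ended elsewhere. A start in a flanked segment with an end in any type 2 segment was found for 176 genes. The reverse, a start in type 2 and an end in a flanked segment, was found for 35. The first kind was the more frequent on 18 of 18 chromosomes. Per start the shares between segments in contact were close: 12.9% of the 1188 genes starting in flanked segments (153) ended in a type 2 segment that touches one, against 15.3% of the 222 starting in those type 2 segments (34) that ended in a flanked one. For type 1 the counts were 145 and 96, in the same order, with the first kind more frequent on 15 of 18 chromosomes and less on 3. In type 3 islands inside type 1 they were 737 and 336. In shoulders of type 4 the order was the other way round, with 149 genes starting in the shoulder and ending in type 4, against 348 starting in type 4 and ending in the shoulder.

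The longest genes that began in a flanked segment and ended in type 2 reached over 1 Mb. The end was counted in any type 2 segment, not only in the neighbour. Ptprt and Dab1 extend past their start segment by more than the longest type 2 segment (1050 kb), so their bodies run through further segments. Ptprt, a receptor tyrosine phosphatase (1139 kb), began in a 20 kb segment at chr2:162655001-162675000. Dab1, the adaptor of the reelin pathway (1125 kb), began in a 25 kb segment at chr4:103610001-103635000. Cacna2d3, a calcium channel subunit (818 kb), began in a 40 kb segment at chr14:29690001-29730000. Kcnma1, the BK potassium channel (713 kb), began in a 70 kb segment at chr14:23970001-24040000. Fat3, an atypical cadherin (592 kb), and Syne1, a nuclear envelope protein (531 kb), each began in a 10 kb segment, and Ryr2, the cardiac ryanodine receptor (554 kb), in a 155 kb one. In these 7 the segment was shorter than the gene. It was also shorter for L3mbtl4 (511 kb gene, 25 kb segment) but longer for Spock1 (487 kb gene, 635 kb segment), the other genes among the 10 longest besides Rarb, whose listed start lies inside its annotated body. These genes were named after their lengths were seen. For 71 of the 1188 genes (5.98%) the start used lay more than 5 kb from the end of the annotated gene body, and without such genes the counts with type 2 were 168 and 32.

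Promoters in the flanked segments had more CpG than those of type 2, and their CpG-rich share was slightly below that of the other type 3 classes. The observed over expected CpG ratio was above 0.6 at 53.5% of their starts (50.6 to 56.3%, 635 of 1188), against 33.4% in type 2 (29.6 to 37.4%). It was 57.9% in islands inside type 1, 58.0% in shoulders of type 4, 57.8% in islands inside type 4 and 61.7% in the remaining type 3. Outside type 3 it was also 55.9% in type 1 (54.5 to 57.2%), 40.8% in type 4 and 17.9% in type 5. Over all genes with a start it was 49.8%. The median number of CpG in the 300 bases was 16.5, against 6 in type 2, and the median GC content was 59.5%, against 50.7%. Of the genes that started in a flanked segment and ended in type 2, 68.2% had a ratio above 0.6 (60.8 to 75%). Of those that ended in type 1, 67.6% had one (59.3 to 75.1%). Of those that ended in the same segment the share was 44.3% (40.5 to 48.0%). These were also shorter, with a median of 12.4 kb against 46.1 kb for genes that ended in type 2, and lengths were not matched. For the 35 genes that started in type 2 and ended in a flanked segment the share was 40% (23.9 to 57.9%). Hnrnpa0 and Chn2, printed above, are promoters of the CpG-rich kind, and Mslnl and Jhy of the CpG-poor kind.

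Starts were unevenly spread: 1213 of 1933 flanked segments held none and 507 held 1. At the high end stood chr17:25710001-25880000 (170 kb, type 2 of 10 kb and type 1 of 35 kb), with 17 starts and 19 whole genes from Gng13, a G protein subunit, Chtf18, a clamp loader protein of replication, Rpusd1 and Mslnl onwards. At chr13:23650001-23815000 (165 kb) lay 14 starts and 15 whole genes, beginning with the histone genes H2ac6, H2bc4, H1f6 and H4c3, a piece of the main cluster of replication histones. At chr1:75160001-75300000 (140 kb) lay 11 starts, beginning with Zfand2b, the ABC transporter gene Abcb6, the autophagy gene Atg9a and Ankzf1. At the low end, 590 flanked segments (29.3%, median 25 kb) overlapped no protein-coding gene. The longest of these, chr9:47255001-47490000, was 235 kb long.

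Small RNA genes were among what the segments held. Of 919 microRNA hairpins placed, 89 (9.68%) lay in 69 flanked segments, against 4.79% of the segmented length and 7.22% of the protein-coding gene starts used. Of these, 14 lay in 1 segment, chr12:109730001-109775000 (45 kb, type 2 of 25 kb and type 1 of 20 kb), inside the imprinted Dlk1 to Dio3 domain, whose microRNA cluster is known for expression from the maternal chromosome. A second segment, chr13:63285001-63335000 (50 kb), held 4, those of the cluster of Mir23b, Mir27b and Mir24-1. No other flanked segment held at least 3. Hairpins of a cluster share a locus and often a transcript, so the 14 are not separate cases. Mature sequences from RefSeq are printed to show what the segments encode, with the seed (bases 2 to 8) in capitals. Of those in the first segment, miR-453 and miR-496a-5p share a seed, and miR-154-3p and miR-382-5p differ.
mmu-miR-453: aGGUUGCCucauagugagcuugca
mmu-miR-496a-5p: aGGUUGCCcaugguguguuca
mmu-miR-154-3p: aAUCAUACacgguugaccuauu
mmu-miR-382-5p: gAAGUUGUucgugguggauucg
mmu-miR-27b-3p: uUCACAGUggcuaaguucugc
mmu-miR-24-3p: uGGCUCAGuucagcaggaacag
These 2 segments were picked after the hairpins had been counted.

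Developmental transcription factor genes had a high share in the flanked segments when genes were placed by most of their body. Of 111 on the list, 18 (16.2%, 9.90 to 24.4%) had most of their body in one, against 5.91% (5.59 to 6.24%) of all protein-coding genes, and the interval lies above that value. In type 3 of any class the share was 36.9% (41 of 111), near the 33.5% of all protein-coding genes. The 18 lay in 15 segments of 20 to 325 kb (median 115 kb), 8 of them double-flanked and 7 single-flanked, and 17 of the 18 lay wholly inside. The interval treats genes that share a segment as separate cases and is too narrow. By the start of the gene, the share was 9 of 77 (11.7%), against 7.22% of all genes with a start. That difference is smaller, and with no interval computed it is not shown to exceed counting error.

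Barhl2, a homeobox gene of retina and brain, was the only protein-coding gene of chr5:106405001-106610000 (205 kb). Dlx5 and Dlx6, the paired homeobox genes of jaw and limb, shared chr6:6790001-6930000 (140 kb, type 2 of 40 and 15 kb). Eomes, a T-box factor of trophectoderm and gastrulation, was the only protein-coding gene of chr9:118325001-118495000 (170 kb, type 2 of 55 and 95 kb). Others, named after their values were seen, were Tbx2 and Tbx4, T-box genes of heart and limb, in chr11:85735001-86035000 (300 kb), Olig1 and Olig2, bHLH genes of oligodendrocytes, in chr16:91200001-91490000 (290 kb), and Pitx1, a hindlimb homeobox gene, in chr13:55715001-56040000 (325 kb). T, the brachyury gene of mesoderm, lay in the 325 kb segment on chromosome 17 named above. All of these genes lay wholly inside their segment.

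The early lineage list had 5 of 40 in flanked segments (12.5%, 4.19 to 26.8%), an interval that includes the 5.91% of all protein-coding genes, and by the start of the gene the share was 8%, against 7.22% of all genes with a start. Of the 5, Eomes and the endoderm factor gene Sox17 are also on the first list. Sox2, a factor of pluripotency and of the neural lineage, was the only protein-coding gene of chr3:34550001-34840000 (290 kb, type 1 of 15 kb and type 2 of 20 kb). Sox17 lay in chr1:4485001-4505000 (20 kb), Prdm14, a factor of pluripotency and of primordial germ cells, in a 105 kb segment and Tead4, which acts in trophectoderm, in a 185 kb one. Of secreted ligands and antagonists 7 of 80 lay there (8.75%, 3.59 to 17.2%, an interval that also includes 5.91%). Bmp6 lay in a 365 kb segment, Fgf1 in the 505 kb one, Fgf20 in one of 35 kb and Fgf8 in one of 185 kb. The others were Shh, Tgfb3 and Wnt5a, named to complete the count, and Shh lay in a 35 kb segment 10 kb from the nearest type 4. Of the receptors of these pathways 0 of 55 lay there (0 to 6.49%).

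Oocyte genes had 6 of 38 in flanked segments (15.8%, 6.02 to 31.3%), against 5.91% of all protein-coding genes, just below the interval. With at least 90% of the body required the share was 10.7%, against 5.98% of all genes. In type 3 of any class the share was 50% (19 of 38), against 33.5% of all protein-coding genes. Ddx4, the Vasa helicase of germ cells, lay in a 60 kb segment, Izumo1r, the egg receptor Juno, in a 70 kb one, and Nobox, an oocyte homeobox gene, had 79.3% of its body in a 10 kb one. Lhx8, a LIM homeobox gene of oocytes that is also on the first list, lay in a 65 kb segment. The other 2 were the zona pellucida genes Zp1 and Zp2. Genes of the Polycomb complexes and the deubiquitinases had 0 of 42 in flanked segments (0 to 8.41%), and genes imprinted through H3K27me3 in the oocyte 0 of 19 (0 to 17.6%). Type 3 of any class held 15 of the 42 and 0 of the 19, so the second 0 is not particular to flanked segments. Genes imprinted through DNA methylation had 3 of 54 in flanked segments (5.56%, 1.16 to 15.4%), Klf14, Mest and Rasgrf1.

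Of the families taken by symbol, solute carrier genes had 35 of 376 in flanked segments (9.31%, 6.57 to 12.7%), beginning with Slc12a1, the kidney sodium-potassium-chloride cotransporter, Slc12a5, the neuronal potassium-chloride cotransporter, and Slc15a1, a peptide transporter. Ubiquitin ligase and protease genes had 24 of 292 (8.22%, 5.34 to 12%), and keratin genes 9 of 112 (8.04%, 3.74 to 14.7%), which came from 2 neighbouring segments on chromosome 11 and are not separate cases. Below the 5.91% of all genes were zinc finger genes named Zfp, with 10 of 388 (2.58%, 1.24 to 4.69%), olfactory receptor genes, with 8 of 1103 (0.725%, 0.314 to 1.42%), and vomeronasal receptor genes, with 0 of 351 (0 to 1.05%). Cytosolic ribosomal protein genes had 1 of 81 (1.23%, 0.0313 to 6.69%), the muscle paralog Rpl3l, and complex I genes 0 of 47 (0 to 7.55%). The remaining lists stood between 2.17% and 7.14%, with intervals that included 5.91%. Genes of a cluster share a segment, so these intervals are too narrow for clustered families. The share in type 3 of any class was 46.0% for solute carrier genes, against 33.5% of all protein-coding genes. It was 4.44% for olfactory and 1.14% for vomeronasal receptor genes, and 28.4% for Zfp genes. Solute carrier and both receptor families thus differed in type 3 as a whole. Of those in type 3, 20.2% of solute carrier, 16.3% of olfactory receptor and 9.09% of Zfp genes were in flanked segments, against 17.7% of all.

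**Figure D5:**
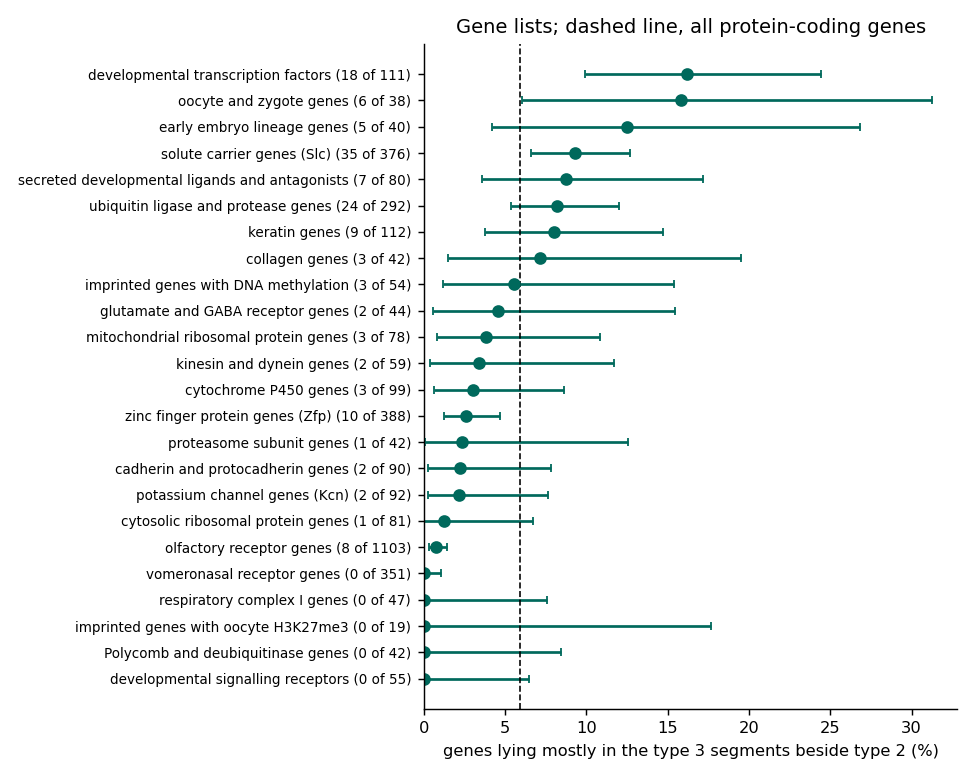
Share of the genes of each list with most of the body in a flanked segment (%, points) with exact 95% intervals (bars) and the share of all protein-coding genes (line). Developmental transcription factors stand at 16.2% with an interval that starts at 9.90%, against 5.91% of all protein-coding genes.

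The flanked segments were on every autosome. Chromosome 1 had the most (179) and chromosome 19 the fewest (52), with a median of 99. Per Mb they were densest on chromosome 13 (1.19, covering 8.44% of the chromosome), against a median of 0.793 over chromosomes, and least dense on chromosomes 3 and 7 (both 0.619). Their share of all type 3 segments ranged from 14.9% on chromosome 11 to 30.1% on chromosome 13. The share of double-flanked ones ranged from 37.8% on chromosome 7 to 60.2% on chromosome 8. The 2 longest segments were both on chromosome 13.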

How the data were processed

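H2Aub and H3K27me3 CUT&RUN was made on 29 libraries. The submitters' processing notes list mm10 and the tools Bowtie2 2.3.4.3, Trim Galore 0.4.5, deepTools 3.0.2 and Picard 2.8.0. The authors deposited 1 table of ChromHMM types of H2Aub, which gives each segment a category, types 1 to 5, in place of a level. For ChromHMM, the version, bin size and input libraries were not given in the sources used here. With no count or signal the depth is unknown, no replicate could be compared and no test was made.

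Segments were sorted by position, and no touching segments shared a type, so none was merged. They overlapped at 118 places and left 21 gaps, which were kept. Direct neighbours are the segments before and after in this order. All positions were multiples of 5 kb. Protein-coding genes came from RefSeq (GRCm38.p6), of which 20558 were used. Genes on separate scaffolds (333 of all kinds, 107 protein-coding) were left out. A gene belongs to the class that covers most of its body, and where segments overlap a bin belongs to the shorter one. Starts and promoters came from RefSeq's promoter table, matched for 16457 genes (80.1%), or 945 of the 1214 genes in the flanked segments (77.8%), with no start or hairpin used from chromosome 18. The start is the outermost one listed.

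Genes were named by rule: those wholly inside the 10 longest segments (up to 4 by position), the longest overlap in the 5 longest of each kind, up to 4 in each of the 3 segments with most starts, up to 4 (lists by name) or 3 (lists by symbol) of each of 24 lists, and the 2 highest and 2 lowest promoters by CpG ratio. Exceptions are marked. The members, lists and rules were chosen with earlier results of these data known. Python 3.11.15, pandas 2.3.3, numpy 2.4.6, scipy 1.17.1 and matplotlib 3.10.9 were used, and the functions were tested on simulated segments.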

Additional observations from a re-analysis of the deposited data

How the results depend on the processing

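In all, 16 measures of segments, neighbours, genes and promoters stayed within the spread of the main value when overlaps went to the longer or, as a choice added after seeing the data, to the shorter segment, and when touching neighbours were required. Leaving segments unmerged is the same analysis, since none was merged. With segments of at least 25 kb alone the median length was 55 kb, the double-flanked share 46.9% and the median type 2 neighbour 25 kb. The segments behind that neighbour were type 1 in 24.6% of contacts, type 3 in 67.2% and type 4 in 6.07%. A gene was then overlapped by 78.0% and a start held by 45.9%. With type 2 required on both sides the total length was 47.2 Mb, the share with a gene 65.4%, genes per Mb 6.80 and the share with a start 29.4%. With all annotated genes these were 85.6%, 25 per Mb and 50.9%. A whole gene lay inside 21.4%. With genes placed by their start, 12.9% of solute carrier genes and 9.52% of cadherin genes were in flanked segments, against 7.22% of all genes with a start. The main shares were 9.31% and 2.22%, against 5.91% of all protein-coding genes. The other 22 lists moved by less than their interval. With at least 90% of the body in 1 class all 24 did. No paired analysis was possible because the table has no column for any library, and no replicate could be left out for the same reason. Type labels carry no level, so how strongly a segment differs from its neighbour cannot be given.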
